A study of Arabidopsis thaliana with 2 samples.

Results

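The genes described here encode the receptor complex that guards the wall of the growing pollen tube in Arabidopsis thaliana. They are the receptor kinases ANX1, ANX2, BUPS1 and BUPS2, the co-receptors LLG2 and LLG3, and the cytoplasmic kinase MARIS. The 7 genes were chosen by name and matched by locus identifier, and all 7 were found among the 33322 nuclear loci listed. RNA was measured by sequencing in mature pollen shaken from open flowers of the ecotype Ler-0 and of the ecotype Col-0, with 1 library each. Both were grown in long days, and the labels name no treatment or transgene. Ler-0 is Landsberg erecta, known for its mutation in ERECTA, and Col-0 is the source of the reference genome. Whether Ler-0 reads aligned to that genome less well at these genes was not tested. Plant age and the number of plants pooled are not stated.

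ANX1, ANX2, BUPS1 and BUPS2 belong to the CrRLK1L family, whose malectin-like domains face the cell wall and whose kinase domains lie in the cytoplasm. ANX and BUPS proteins form heteromers at the tube membrane together with the GPI-anchored LLG2 and LLG3, and bind the peptides RALF4 and RALF19 that the tube itself secretes. Loss of the receptors makes pollen tubes burst too early, and MARIS acts downstream of them to keep the tube intact. The vegetative cell of the pollen grain, which grows the tube, holds most of the RNA of mature pollen, and a pair of sperm cells lies inside it.

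ANX1 (AT3G04690) lies on chromosome 3 at 1273172 to 1276008 on the minus strand of TAIR10, and its protein has 850 residues by the length of its coding sequence. ANX2 (AT5G28680) lies on chromosome 5 at 10719437 to 10722013, also on the minus strand, with 858 residues. BUPS1 (AT4G39110) lies on chromosome 4 at 18222483 to 18225119 and BUPS2 (AT2G21480) on chromosome 2 at 9202753 to 9205368, both on the minus strand, with 878 and 871 residues. ANX2, BUPS1 and BUPS2 have 1 exon each and ANX1 has 2. LLG2 (AT2G20700, chromosome 2, 8924894 to 8925804, minus strand) and LLG3 (AT4G28280, chromosome 4, 14010685 to 14011558, plus strand) are short, with 3 exons each and 163 and 160 residues. MARIS (AT2G41970, chromosome 2, 17520379 to 17522756, minus strand) has 8 exons and 365 residues. Exons and coding lengths are those of the RefSeq TAIR10.1 transcript with the longest coding sequence.

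ANX1 and ANX2, BUPS1 and BUPS2, and LLG2 and LLG3 are paralogs, so their coding sequences were compared first. ANX1 and ANX2 were identical at 80.7% of aligned coding bases, BUPS1 and BUPS2 at 82.3%, and LLG2 and LLG3 at 77.5%. Between an ANX and a BUPS gene the identity was 51.8% to 52.9%. No window of 50 bases was shared within any pair, so a read of that length could be assigned to 1 paralog, although the read length is not stated. The longest stretches that the exons of each pair have in common are shown to let a reader see how short they are, written 5′ to 3′ on the gene's strand as in the TAIR10.1 genome.
ANX1 (chromosome 3, 1274248 to 1274276) and ANX2 (chromosome 5, 10720311 to 10720339): ctcaacgaattcgagacagaaatcgaact
BUPS1 (chromosome 4, 18222979 to 18223007) and BUPS2 (chromosome 2, 9203231 to 9203259): gacaaatccgatgtttattcctttggtgt
LLG2 (chromosome 2, 8925256 to 8925278) and LLG3 (chromosome 4, 14011233 to 14011255): gccttcaaggactttgcttgccc
These runs measure 29, 29 and 23 bases. The whole gene spans were then searched against the genome. Outside the gene itself, the longest match of each ANX, BUPS and LLG span was its own paralog. The next matches of the receptors lay in other CrRLK1L genes, among them FER, HERK1 and THE1. The longest match of MARIS was in AT2G30740, a kinase of its own subfamily, at 73.2% identity over 508 bases.

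The windows of 250 bases before the TAIR10.1 gene starts were read for 6 of the 7 genes, all but BUPS2. They were searched on both strands for 3 motifs. For ANX1, ANX2, BUPS1 and MARIS these starts lie upstream of the deposited spans given above. The ANX1 window covers 1276946 to 1277195 on chromosome 3, and the BUPS1 window 18225239 to 18225488 on chromosome 4. The MEF2-type CArG box, which pollen MADS-domain factors of the MIKC* class bind, was found in the window of BUPS1 and in none of the other 5. That box was present in 2.17% of 26719 protein-coding windows of the same length, in 2.80% of those of expressed genes, and in 10.97% of the 629 windows of genes that reached FPKM 100 in at least 1 library. Of the windows of 16 further genes that act with the complex, described below, 3 (18.75%) held it. The BUPS1 box lay 98 to 107 bases before the TAIR10.1 start, and so farther from the end of the deposited span. The BUPS1 window runs into the neighbouring gene AT4G39120, so only 30 bases around the box are shown, with the box in capitals, beside the whole window of ANX2, which follows BUPS1 in level and has no box.
BUPS1, TAIR10.1 chr4:18225326-18225355, minus strand: tagcaatttgCTAAATATAGaccattgaat
ANX2, TAIR10.1 chr5:10722362-10722611, minus strand: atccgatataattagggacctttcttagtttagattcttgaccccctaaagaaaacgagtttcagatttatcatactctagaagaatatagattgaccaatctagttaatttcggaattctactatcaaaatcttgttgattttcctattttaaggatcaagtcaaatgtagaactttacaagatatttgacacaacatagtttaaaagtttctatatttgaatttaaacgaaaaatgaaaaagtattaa
AGAAA, known from the tomato pollen gene LAT52, was found in the windows of 5 of the 6 genes, all but MARIS, against 82.5% of all windows. GTGA, known from a late pollen gene of tobacco, was found in 4 of the 6, against 77.5% of all windows. With 6 genes such shares are coarse. The windows of ANX1 (AT3G04700 and AT3G04710) and LLG2 (AT2G20710) also run into neighbouring genes, so that 3 of the 6 windows searched hold bases of another gene. The 3 motifs do not contain one another. A match is a description of these letters, and binding was not measured.

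Summed over the listed loci, the counted reads came to 88952509 (Ler-0) and 76488187 (Col-0). A read in an overlap of loci may enter these sums more than once. Levels are given as FPKM, which counts reads relative to gene length and library size, and the reads behind each value could be recovered exactly. Of 6 vegetative cell markers 6 stood at FPKM 1 or more in both libraries, and they summed to 5058 FPKM in Ler-0 against 7729 in Col-0. By the mean of both libraries VGD1 was the highest of them (3073 FPKM in Ler-0 against 5875 in Col-0) and VEX1 the lowest (2.56 and 6.39 FPKM), and the highest and lowest genes below are given by the same mean. Of 6 sperm cell markers 6 did so in Ler-0 and 5 in Col-0, with sums of 158 and 76.1 FPKM, led by MGH3 (138 FPKM in Ler-0 against 58.0 in Col-0) and with DUO1 lowest. Green tissue markers were low but present, at 56.7 FPKM in Ler-0 and 52.6 in Col-0 over 8 genes, mostly from LHCB1.1, with PSBO1 lowest. The anther and flower genes were low, and of both lists SEP3 and AP1 alone reached FPKM 1, in Ler-0. The 6 tapetum genes summed to 1.17 FPKM in Ler-0 and 1.04 in Col-0, with CYP704B1 highest and ATA7 lowest. The 5 floral organ identity genes summed to 3.78 FPKM in Ler-0 and 2.60 in Col-0, with SEP3 highest and AG lowest. No marker of any list was at 0 reads.

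All 7 genes were expressed in both ecotypes. BUPS1 stood highest by far and MARIS lowest, and the same 2 genes, BUPS1 and ANX2, led in both libraries. Together the 7 genes took 0.793% of counted reads in Ler-0 and 0.920% in Col-0. With no replicate of either ecotype, a difference between them cannot be set against biological spread, and all intervals below cover counting error only.

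Among the receptors, BUPS1 reached 1770 FPKM in Ler-0 (95% Poisson interval 1764 to 1775) and 1871 FPKM in Col-0 (1865 to 1877). It was among the most abundant messages of pollen, at rank 55 in Ler-0 and 68 in Col-0 of 27213 protein-coding genes. BUPS2, its paralog, stood at 208 FPKM in Ler-0 (206 to 210) and 306 in Col-0 (303 to 308). Both genes were lower in Ler-0, with intervals that did not overlap. In the ANX pair it is the second gene that stood higher. ANX2 stood at 697 FPKM in Ler-0 (694 to 701) and 936 in Col-0 (931 to 940), ranks 152 and 123. ANX1 stood at 206 FPKM in Ler-0 (204 to 208) and 223 in Col-0 (221 to 225). Here too the Ler-0 values were the lower ones, by a wider margin for ANX2. Both ANX genes and both BUPS genes thus lay within the highest 1.30% of protein-coding genes in Ler-0 and the highest 1.23% in Col-0.

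Of the co-receptors, LLG2 lay within the range of the receptors and LLG3 below all 4 of them. LLG2 stood at 234 FPKM in Ler-0 (231 to 237) and 270 in Col-0 (266 to 273). LLG3 stood at 98.3 FPKM in Ler-0 (96.2 to 101) and 149 in Col-0 (146 to 152). Both co-receptor genes were lower in Ler-0, with intervals apart. The 4 receptors summed to 8.67 times the level of LLG2 and LLG3 in Ler-0 and 7.97 times in Col-0. MARIS, the only cytoplasmic kinase of the set, stood at 15.9 FPKM in Ler-0 (15.3 to 16.4) and 23.5 in Col-0 (22.8 to 24.2), ranks 1746 and 1342.

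**Figure D1:**
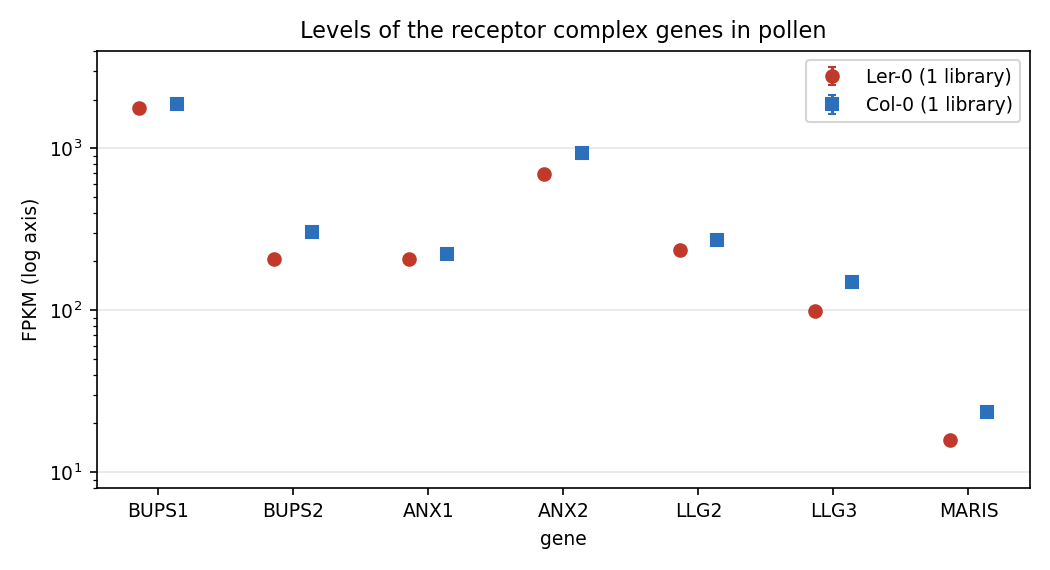
Levels of the 7 genes in FPKM (log axis) in the Ler-0 library (circles) and the Col-0 library (squares); bars show 95% Poisson intervals, most of them smaller than the symbols. BUPS1 lies at 1770 and 1871 FPKM and MARIS at 15.9 and 23.5 FPKM, and each Ler-0 value lies below its Col-0 value.

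The order from high to low was BUPS1, ANX2, LLG2, BUPS2, ANX1, LLG3 and MARIS in Ler-0, and BUPS1, ANX2, BUPS2, LLG2, ANX1, LLG3 and MARIS in Col-0. BUPS2 and ANX1 were not separated in Ler-0, where their intervals overlapped. All other neighbours in either order were separated by their intervals. The step from LLG3 down to MARIS was the widest, 6.20-fold in Ler-0 and 6.34-fold in Col-0. BUPS1 stood 2.54-fold over ANX2 in Ler-0 and 2.00-fold in Col-0.

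The authors divided by the whole gene span, which lowers the values of genes with introns. Divided by exonic length, LLG2 stood at 308 FPKM in Ler-0 and 355 in Col-0, LLG3 at 131 and 199, and MARIS at 24.7 and 36.6. LLG2 then ranked above BUPS2 in Col-0 as well, and ANX1 (212 FPKM) above BUPS2 (208 FPKM) in Ler-0, while the receptors summed to 6.57 times the co-receptors in Ler-0 and 6.03 times in Col-0. MARIS stayed the lowest of the 7 on either length.

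In the deposited tables the span of AT4G39120, annotated as the inositol monophosphatase-like gene IMPL2, runs from 18220589 to 18227988 on chromosome 4 and encloses BUPS1 on the same strand; in TAIR10.1 that gene begins beyond BUPS1. It held 430670 reads in Ler-0 and 403334 in Col-0, of which BUPS1 alone accounts for 414946 and 377215 if reads were counted for both loci. For loci with at least 1000 reads that lie inside another, the outer locus held at least as many reads as the inner one in 16 of 16 same-strand pairs in Ler-0 and 14 of 14 in Col-0. The same held for 13 of 13 pairs on opposite strands in Ler-0 and 16 of 16 in Col-0, as would be the case if a read in an overlap were counted for each locus whatever its strand. The part of the enclosing span outside BUPS1 then amounts to 37.1 FPKM in Ler-0 and 71.7 in Col-0, far below BUPS1 itself. LLG2 shares 81 bases with AT2G20690 on the other strand, which stood at 24.0 FPKM in Ler-0 against 21.8 in Col-0. The other 5 genes overlap no listed locus.

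Each pair had a dominant paralog, the same one in both ecotypes, but its share differed between them. BUPS1 made up 89.5% of the summed BUPS level in Ler-0 (95% Clopper-Pearson interval 89.4 to 89.6) and 86.0% in Col-0 (85.9 to 86.1), so that it stood 8.51-fold and 6.12-fold over BUPS2. In the ANX pair the second gene dominated, with ANX2 at 77.2% in Ler-0 and 80.8% in Col-0, or 3.38-fold and 4.20-fold over ANX1. LLG2 made up 70.4% of its pair in Ler-0 (69.9 to 71.0) and 64.4% in Col-0 (63.8 to 65.0), 2.38-fold and 1.81-fold over LLG3.

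The intervals of the 2 libraries did not overlap in any of the 3 pairs. The dominant gene thus held more of its pair in Ler-0 for BUPS and LLG and less for ANX. These shares do not depend on how the libraries are scaled to each other. The BUPS genes together stood 2.19 times over the ANX genes in Ler-0 and 1.88 times in Col-0.

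**Figure D2:**
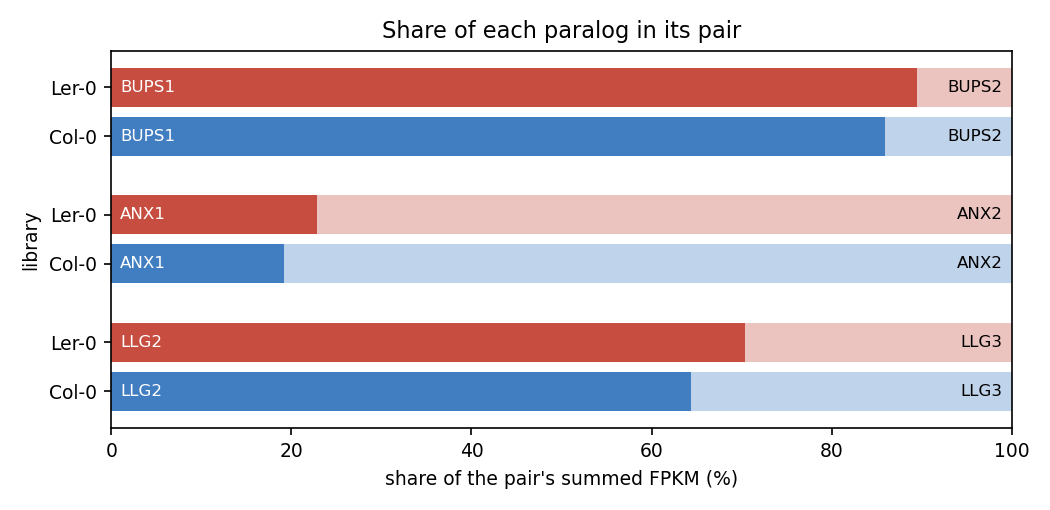
Share of each paralog in the summed FPKM of its pair (%), with Ler-0 above Col-0 for each pair; the dark part is the first-named gene and the pale part its paralog. BUPS1, ANX2 and LLG2 hold the larger share in both libraries, and BUPS1 holds 89.5% in Ler-0 and 86.0% in Col-0.

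All 7 genes were lower in the Ler-0 library than in the Col-0 library, each by less than 2-fold. LLG3 had the lowest ratio of Ler-0 over Col-0 FPKM, 0.660 (95% exact binomial interval 0.640 to 0.680), followed by MARIS at 0.675 (0.645 to 0.706), BUPS2 at 0.680 (0.672 to 0.688) and ANX2 at 0.745 (0.741 to 0.751). LLG2 had a ratio of 0.868 (0.851 to 0.886), ANX1 0.926 (0.914 to 0.937) and BUPS1 0.946 (0.942 to 0.9501). In each pair 1 paralog thus had a ratio of 0.868 or more (BUPS1, ANX1, LLG2) and the other of 0.745 or less (BUPS2, ANX2, LLG3).

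For the count against all genes, log2 ratios of FPKM + 1 were centred on their median of 0.06 over the 6656 loci at FPKM 1 or more in both libraries, and a locus counts as expressed where it reached FPKM 1 in at least 1 of them. On this scale the 7 genes ran from -0.66 for LLG3 to -0.14 for BUPS1, with a median of -0.49, where the median over all 9562 expressed loci was 0.06. None of the 7 (0 higher and 0 lower) was at least 2-fold apart, against a background of 11.3% of expressed loci that passed 2-fold upward and 10.3% that passed it downward. Among expressed protein-coding genes these shares were 8.63% and 9.93%. A 4-fold difference was passed by 3.44% of expressed loci upward and 2.22% downward, and again by 0 of the 7. Of the same loci 46.9% were below 0, and of the 638 protein-coding genes that reached FPKM 100 in at least 1 library 55.3% were, with a median of -0.09.

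The marker sums differed too, lower in Ler-0 for the vegetative cell and higher for the sperm cells, but each sum was carried by 1 gene. Without VGD1 the other 5 vegetative markers summed to 1985 FPKM in Ler-0 against 1854 in Col-0, the opposite direction, and their list ran from -1.12 for VEX1 to 1.75 for CPK34 on the centred log2 scale, with 4 of 6 below 0. Without MGH3 the other 5 sperm cell markers summed to 19.9 FPKM in Ler-0 against 18.1 in Col-0, and 5 of the 6 were above 0, with GEX2 at -0.95. The part of either list in the ratios of the 7 genes was not tested. CPK34, AP1 and GEX2 are named after their values were seen. In whole pollen, fewer cells of a type and less RNA per cell cannot be told apart, and ecotype, plants and library preparation vary together.

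**Figure D3:**
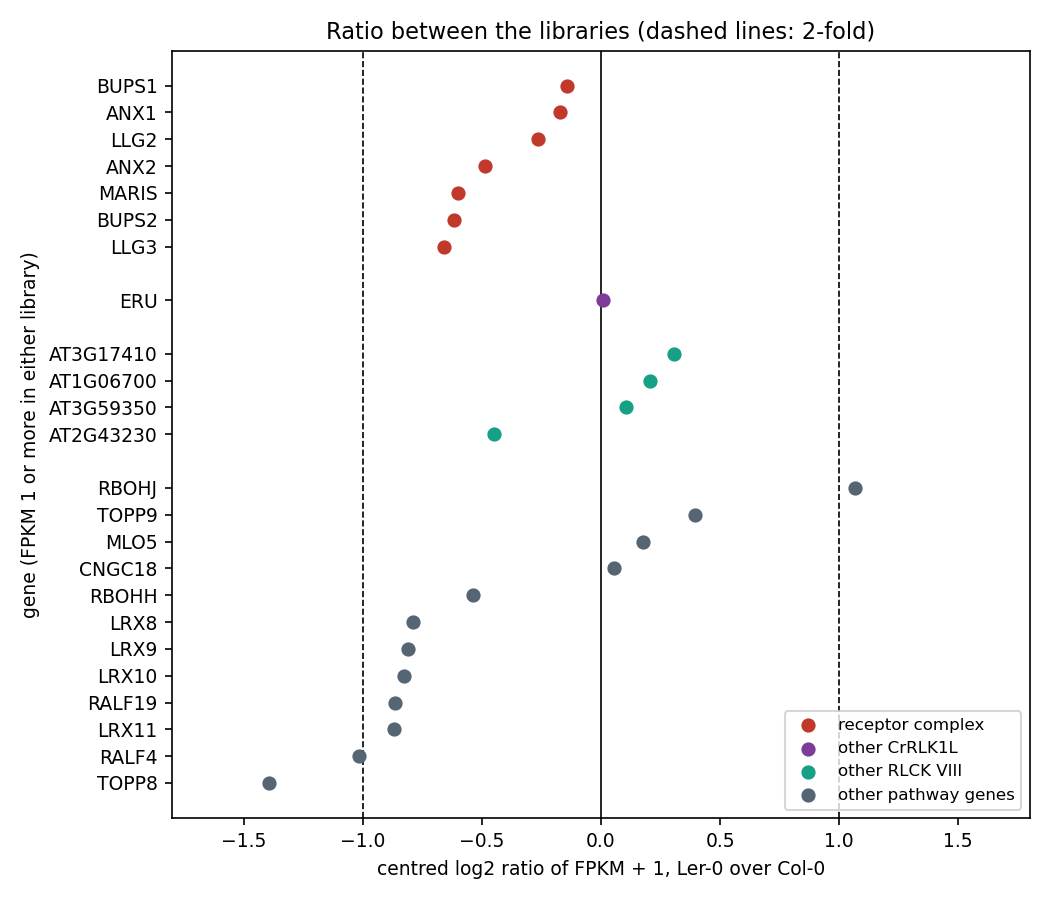
Ratios of Ler-0 over Col-0 as centred log2 values of FPKM + 1 for the 7 receptor complex genes and for the expressed members of related lists; the dashed lines mark 2-fold. All 7 genes lie between -0.66 and -0.14, inside the lines.

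Of the other 13 CrRLK1L kinases, which act mostly outside pollen, 12 were nearly silent. ERU, known for root hair growth, was the exception, with 30.5 FPKM in Ler-0 and 29.0 in Col-0, a ratio of 1.05 (1.02 to 1.09). On gene span ERU stood above MARIS in both libraries. Divided by exonic length, it stood above MARIS in Ler-0 (30.5 against 24.7 FPKM) and below it in Col-0 (29.0 against 36.6). The remaining 12 lay between 0.0300 and 0.286 FPKM in Ler-0 and between 0.0107 and 0.769 in Col-0. FERONIA (FER), the receptor of vegetative tissues and of the synergids that receive the pollen tube, is named here after its values were seen. It rested on 72 reads in Ler-0 (0.246 FPKM) and 194 in Col-0 (0.769 FPKM). ANX1, ANX2, BUPS1 and BUPS2 together held 98.9% of the summed level of the 17 family members in Ler-0 against 99.1% in Col-0.

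The LLG family showed the same division, seen in LLG1 and LRE, also named after their values were seen. LLG1, the FERONIA co-receptor of vegetative tissues, stood at 0.765 FPKM in Ler-0 and 0.965 in Col-0. Divided by exonic length, LLG1 stood at 1.23 FPKM in Ler-0 and 1.55 in Col-0, above FPKM 1 in both. LRE, the co-receptor of the synergids, stood at 0.114 FPKM in Ler-0 (10 reads) and 0.186 in Col-0 (14 reads). LLG2 and LLG3 held 99.7% of the summed level of the 4 genes in either library.

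MARIS had relatives that were far more abundant. Among 10 other kinases placed in its subfamily, RLCK VIII, 4 were expressed. AT2G43230, which overlaps the small locus AT2G43235, stood at 532 FPKM in Ler-0 and 695 in Col-0, AT3G59350 at 463 and 412, and AT1G06700 at 408 and 339. AT3G17410 stood at 4.12 FPKM in Ler-0 against 2.96 in Col-0, and the other 6 lay between 0.0985 and 0.550 FPKM in Ler-0 and between 0.0437 and 0.449 in Col-0. MARIS held 1.11% of the summed level of the 11 genes in Ler-0 and 1.60% in Col-0. Of the 4 expressed relatives 0 were at least 2-fold apart, against 11.3% of expressed loci upward and 10.3% downward, and 1 had a centred log2 ratio below 0, against 46.9% of those loci.

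**Figure D4:**
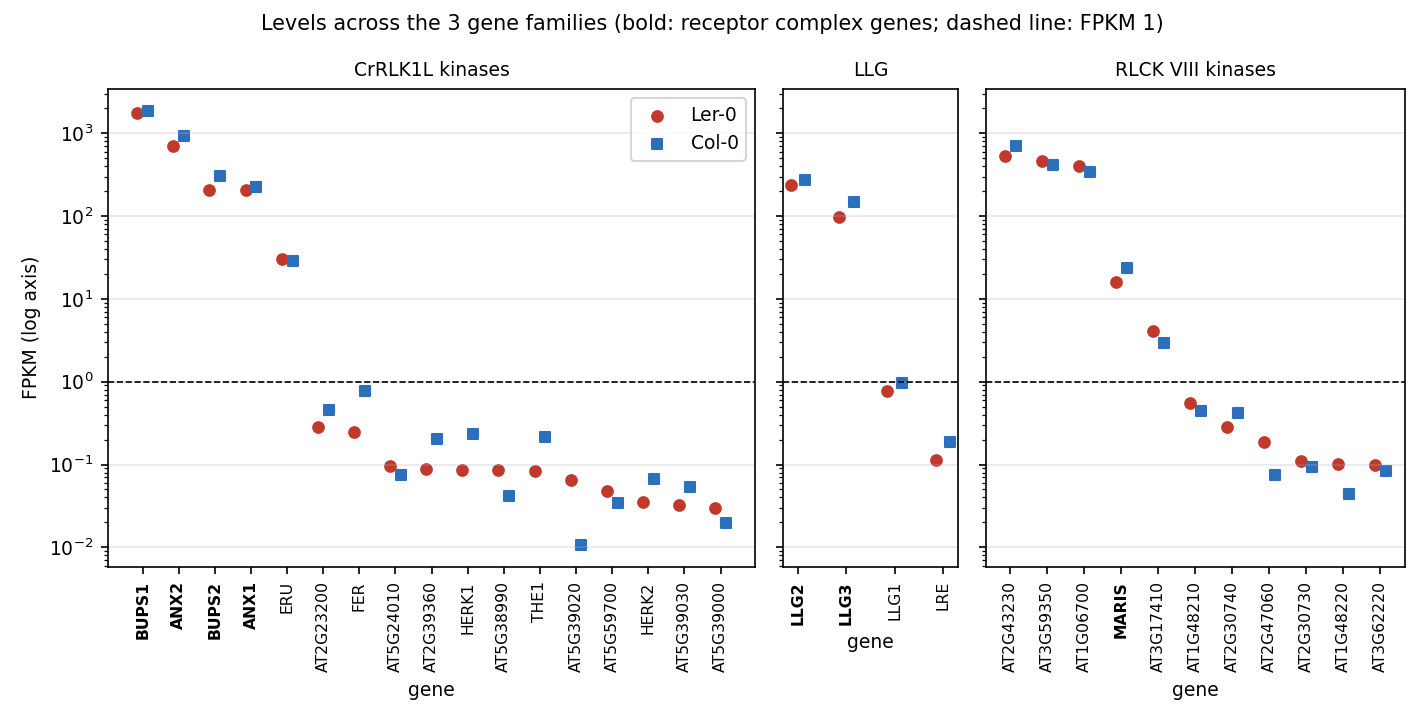
FPKM (log axis) of all 17 CrRLK1L kinases, 4 LLG genes and 11 RLCK VIII kinases in Ler-0 (circles) and Col-0 (squares), sorted by the Ler-0 level, with the receptor complex genes in bold and FPKM 1 dashed. The 4 receptors and LLG2 and LLG3 head their families, while MARIS stands below AT2G43230, AT3G59350 and AT1G06700.

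Of 16 further genes that act with the complex, 12 were expressed, of which 1 (8.33%) passed 2-fold upward and 2 (16.7%) passed it downward, against 11.3% and 10.3% of all expressed loci. Their median centred log2 ratio was -0.80. The ligands RALF4 and RALF19 stood at 1555 and 1198 FPKM in Ler-0 and at 3013 and 2089 in Col-0. Their ratios of 0.516 (0.512 to 0.520) and 0.574 (0.569 to 0.579) were lower than that of any of the 7 genes. RALF4 was past 2-fold on the centred scale (-1.02) and not without centring. RALF34, a related peptide made by the ovule, rested on 6 reads in Ler-0 against 32 in Col-0.

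The wall proteins LRX8, LRX9, LRX10 and LRX11, extensins that hold RALF peptides in the tube wall, had ratios of 0.604, 0.596, 0.589 and 0.571. LRX8, LRX9 and LRX10 stood between 1185 and 1291 FPKM in Ler-0 and between 1989 and 2193 in Col-0, and LRX11 at 401 and 703. Their ratios lay closer together than those of the 7 genes, which ran from 0.660 to 0.946.

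Genes that act after the receptors went both ways. The NADPH oxidases RBOHH and RBOHJ, which make the reactive oxygen that the tube needs, split. RBOHH stood at 37.1 FPKM in Ler-0 and 51.9 in Col-0, a ratio of 0.714 (0.698 to 0.730). RBOHJ stood at 9.86 FPKM in Ler-0 and 3.97 in Col-0, a ratio of 2.49 (2.34 to 2.64) and a centred log2 ratio of 1.07, the one gene of the list past 2-fold upward. That call was lost with a pseudocount of 5. Both expressed genes of the list that are linked to calcium entry lay closer to their Col-0 levels. CNGC18, a cyclic nucleotide-gated channel, (58.8 FPKM in Ler-0 against 54.1 in Col-0) and MLO5, a membrane protein that guides tube growth (23.5 FPKM in Ler-0 against 19.7 in Col-0), had ratios of 1.09 (1.06 to 1.11) and 1.19 (1.15 to 1.24). MLO1, MLO9 and MLO15 lay between 0.166 and 0.738 FPKM in Ler-0 and between 0.101 and 0.608 in Col-0. Of the type one protein phosphatases TOPP9 and TOPP8, which act downstream as negative regulators of wall integrity signalling, TOPP9 stood at 80.9 FPKM in Ler-0 and 58.7 in Col-0. TOPP8 stood at 8.75 FPKM in Ler-0 and 23.6 in Col-0, at 0.371 the lowest ratio of the 12 expressed genes (0.350 to 0.394).

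For each of the 7 genes the protein-coding gene nearest in both levels was sought, by Euclidean distance in log2(FPKM + 1) over the 2 libraries. With 2 libraries this says only that the levels are alike. MARIS lay 0.015 from NF-YC3, a subunit of nuclear factor Y, with 16.03 FPKM in Ler-0 against 23.4 in Col-0, and 69 genes lay within 0.25 of it. ANX2 lay 0.059 from the sugar transporter STP11 (711 and 970 FPKM), with 9 genes within 0.25. BUPS1 had the fewest neighbours, 5, the nearest being AT2G26450 of the invertase/pectin methylesterase inhibitor superfamily at 1847 and 1898 FPKM. ANX1 lay nearest to AT3G48450, of the RIN4 family, BUPS2 to the MEI2-like gene ML1, LLG2 to the calmodulin-binding-like AT5G15430, and LLG3 to the MADS-box gene AT3G12510, at distances of 0.047 to 0.081.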

How the data were processed

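The deposited values are FPKM, computed by the authors per gene, per the file headers. Per the submitters' processing notes, Subread and TAIR10 were used; the version, the counting rule and strand use are not stated there. FPKM multiplied by span (end minus start) was a whole multiple of 1 step in 100% of values (within 0.01), which gave the reads per gene. At FPKM 1 a gene with a span of 1 kb had 89.0 reads in Ler-0 and 76.5 in Col-0.

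Exact 95% Poisson intervals were set on FPKM and exact binomial (Clopper-Pearson) intervals on ratios and shares. They cover counting error alone, and may be too narrow even for that, because PCR copies of 1 molecule are counted separately. No p-value was computed. Sequences and exons are from RefSeq TAIR10.1, matched by locus identifier, whose 5 nuclear chromosomes hold all deposited coordinates; coding sequences were aligned with MAFFT 7.526 and similar sequences sought with BLAST 2.17.0. The window upstream of BUPS2 is not reported here. The procedure was tested on simulated reads that carried counting error alone, so spread between plants or libraries was not covered. Named were the 7 genes, every listed relative or pathway gene at FPKM 1 or more, the nearest gene to each, and the highest and lowest marker of each list, plus genes marked in the text. The genes and lists were chosen with earlier results of these data known. Alternatives covered pseudocount, centring, locus type, fold threshold, filter and gene length.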

Additional observations from a re-analysis of the deposited data

How the results depend on the processing

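The 7 log2 ratios stayed below 0 in all 35 values from 5 alternatives of pseudocount, centring and locus type, between -0.68 and -0.04, and 0 of the 7 genes passed 2-fold in any of them. These values are not independent checks, because a change of centring shifts every log2 ratio by the same amount. The median subtracted ran from -0.04 (centring at FPKM 10) to 0.08 (pseudocount 0.1). Centring on loci at FPKM 10 or more in both libraries subtracted -0.04 from every log2 ratio instead of 0.06. The median over the 7 genes was then -0.38. At a 4-fold threshold, which 3.44% of expressed loci passed upward and 2.22% downward, 0 pathway genes were called higher and 0 lower. A pseudocount of 5 left 0 higher and 1 lower, and 1 lower remained both without centring and with centring at FPKM 10, where RALF4 no longer passed. The smaller values follow from those settings by construction. On exonic length ANX1 made up 23.3% of its pair in Ler-0 and 19.7% in Col-0, against 22.8% and 19.2% on gene span. In each library 2 of the 7 genes changed place in the order. Some genes under FPKM 1 on gene span passed it on exonic length. These were LLG1, MLO1 and the RLCK VIII kinase AT1G48210, named after its values were seen, in both libraries, and MLO9 in Ler-0. TPM multiplied every value by 1.66 in Ler-0 and 1.72 in Col-0. No paired analysis was possible because there is a single library of each ecotype. Many genes under FPKM 1, such as most relatives of the receptors, rest on few reads, which limits their ratios. Not all do, and MLO1 had 227 reads in Ler-0 and 161 in Col-0.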
